A study of Homo sapiens with 6 samples.

Results

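The comparison described here set TGF-β1 at 5 ng/mL against 1 ng/mL within each of 2 lung epithelial lines, without using the untreated cells as the reference. Its members were chosen by label alone: 4 of the 6 small RNA libraries of the series, namely A549 at 1 and 5 ng/mL and BEAS-2B at 1 and 5 ng/mL, each treated for 48 h, with all 2588 mature miRNAs of the count files compared. A549 derives from a lung adenocarcinoma and BEAS-2B from normal bronchial epithelium that was immortalised, and the labels give both lines as wild type. Each line and dose was 1 library, so a difference between doses has no replicate check within a line, and no p-value is given for a single line. The question was which miRNAs differed once the dose went beyond 1 ng/mL.

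TGF-β1 binds its receptor kinases, which phosphorylate SMAD proteins that enter the nucleus and change transcription. In epithelial cells this programme lowers epithelial genes and raises mesenchymal and matrix genes. A miRNA is cut from one arm of an RNA hairpin, loaded into an Argonaute protein and guided to messenger RNAs by its seed, the short stretch near its 5′ end. miRNAs with the same seed form a family with shared targets, hairpins close together on 1 strand are often made from 1 transcript, and SMAD proteins have also been described to act on the processing of some hairpins, miR-21 among them.

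Counts were divided by library size after trimmed mean of M-values (TMM) scaling and brought to a common size of 749498 counts. The log2 of the normalised count plus 1 is called normalised data (ND). A miRNA met the level criterion where the greater ND of the libraries compared reached 8, which is a normalised count of 255, and it was past both criteria where the fold was also at least 1.4 in either direction. Each log2 ratio below is 5 over 1 ng/mL with an exact 95% counting interval in brackets. The interval covers counting error only, since each line and dose was 1 library. The reads carried no molecular identifiers, so amplified copies of 1 molecule were not told apart and the interval can be too narrow.

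The mature sequences of the miRNAs that carry the dose difference are printed 5′ to 3′ from RefSeq, GRCh38.p14, with the seed (bases 2 to 8) in capitals. Those past the criteria in both lines were the following.
miR-193b-3p: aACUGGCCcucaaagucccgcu
miR-16-5p: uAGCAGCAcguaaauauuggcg
miR-125a-5p: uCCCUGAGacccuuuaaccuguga

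The next set holds miR-365a-3p, the neighbour of miR-193b in its cluster, and miR-365b-3p, of the same sequence but from a hairpin on chromosome 17. It also holds the other miRNA at 2-fold or more in BEAS-2B, and the largest ratios in A549.
miR-365a-3p: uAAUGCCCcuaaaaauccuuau
miR-365b-3p: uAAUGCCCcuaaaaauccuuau
miR-197-3p: uUCACCACcuucuccacccagc
miR-589-5p: uGAGAACCacgucugcucugag
miR-101-3p: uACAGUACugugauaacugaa

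The last set shows family members that went together in A549 and names whose reads are hard to separate.
let-7d-5p: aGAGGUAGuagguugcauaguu
miR-30a-5p: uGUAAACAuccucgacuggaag
miR-30e-5p: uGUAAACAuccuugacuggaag
miR-7-5p: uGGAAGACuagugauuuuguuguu
miR-3529-3p: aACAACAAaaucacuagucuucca

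The 3p forms of miR-365a and miR-365b are identical, so their reads cannot be assigned to 1 of the 2 hairpins. miR-30a-5p and miR-30e-5p share their seed and differ by 1 edit. miR-3529-3p is the exact reverse complement of miR-7-5p, and how strand was handled in counting is not given in the sources used here, so reads of these names cannot be told apart with certainty. Of the 27 miRNAs past the criteria in either line, 26 had a sequence in the RefSeq table, and miR-374a-5p is named only.

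The 4 treated libraries held 633318 to 900424 counts, with 908 to 965 miRNAs having a count and 114 to 124 reaching an ND of 8. A count of 0 allowed up to 2.94 to 3.49 normalised counts in these libraries. Epithelial marker miRNAs of the miR-200 family, miR-205-5p and miR-203a-3p were scarce in all 4 libraries, at 0.0433% to 0.0475% of counts in sum and with miR-200b-3p the highest at 204 to 271 counts. Of these markers, miR-205-5p was at 0 in A549 at 5 ng/mL and BEAS-2B at 1 ng/mL, and miR-203a-3p was at 0 in BEAS-2B at 5 ng/mL. Summed blood markers stood at 0 to 4 counts and muscle markers at 0 to 2. miR-126-3p, which is known from endothelium, had 1280 and 1166 counts in A549 at 1 and 5 ng/mL and 230 and 197 in BEAS-2B. It led the list for liver, brain and endothelium, which summed to 0.196% and 0.235% of counts in A549 and to 0.0374% and 0.0282% in BEAS-2B. On the same list, miR-9-5p had a mean normalised count of 426 over the treated A549 libraries. Its log2 ratio there was -0.41 [-0.62, -0.20].

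The difference between the doses was small beside the difference of either dose from untreated cells. Over 142 miRNAs of A549 that reached an ND of 8 in any of its 3 libraries, the median absolute log2 ratio was 0.22 between the doses, 0.46 between 1 ng/mL and control, and 0.52 between 5 ng/mL and control. In BEAS-2B, over 126 miRNAs, the same medians were 0.14, 0.29 and 0.37. The larger ratios followed the same order. The 90th percentile in A549 was 0.58 between the doses against 1.36 and 1.66 from control, and in BEAS-2B it was 0.42 against 0.97 and 1.06. These comparisons share libraries, so they are set side by side only. With each comparison taken over its own set meeting the level criterion, 1 ng/mL against control gave 67 of 137 miRNAs past the criteria in A549 (48.9%) and 35 of 120 in BEAS-2B (29.2%), and 5 ng/mL against control gave 75 of 141 (53.2%) and 45 miRNAs (36.0%) in the 2 lines.

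Between the doses, 130 miRNAs met the level criterion in A549 and 22 were past both criteria, which is 16.9%. Of these, 11 were higher at 5 ng/mL (8.46%) and 11 were lower (8.46%). In BEAS-2B, 121 met the level criterion and 8 were past both (6.61%), 7 of them higher (5.79%) and 1 lower (0.826%). The greatest folds in A549 were 1.99 upward for miR-589-5p and 1.79 downward for miR-101-3p, so none reached 2-fold. In BEAS-2B, miR-193b-3p at 2.46-fold and miR-197-3p at 2.03-fold did, while miR-125a-5p was 1.55-fold lower. Most miRNAs differed little: 76 of 130 in A549 and 90 of 121 in BEAS-2B lay within 1.2-fold.

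The split between directions depended on the scaling. miR-21-5p alone took 47.6% to 57.2% of counts in the treated libraries. When counts were scaled by their total, 38 miRNAs were higher and 2 lower in A549, and the median over all tested moved from 0.02 to 0.33. Without scaling, 2 were higher and 25 lower in A549 (median -0.20) and 20 were higher and 0 lower in BEAS-2B (median 0.22). BEAS-2B had 12 higher and 1 lower (median 0.12) when scaled by the total without miR-21-5p, 5 and 3 with DESeq2 size factors and 5 and 2 after quantile normalisation. A549 had 13 and 9 when scaled by the total without miR-21-5p. Under all 6 other scalings the criteria were still met by miR-589-5p and miR-3182, which were higher in A549, by miR-101-3p and miR-374a-5p, which were lower in A549, and by miR-16-5p, miR-193b-3p, miR-197-3p, miR-365b-3p and miR-574-3p, which were higher in BEAS-2B.

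**Figure D1:**
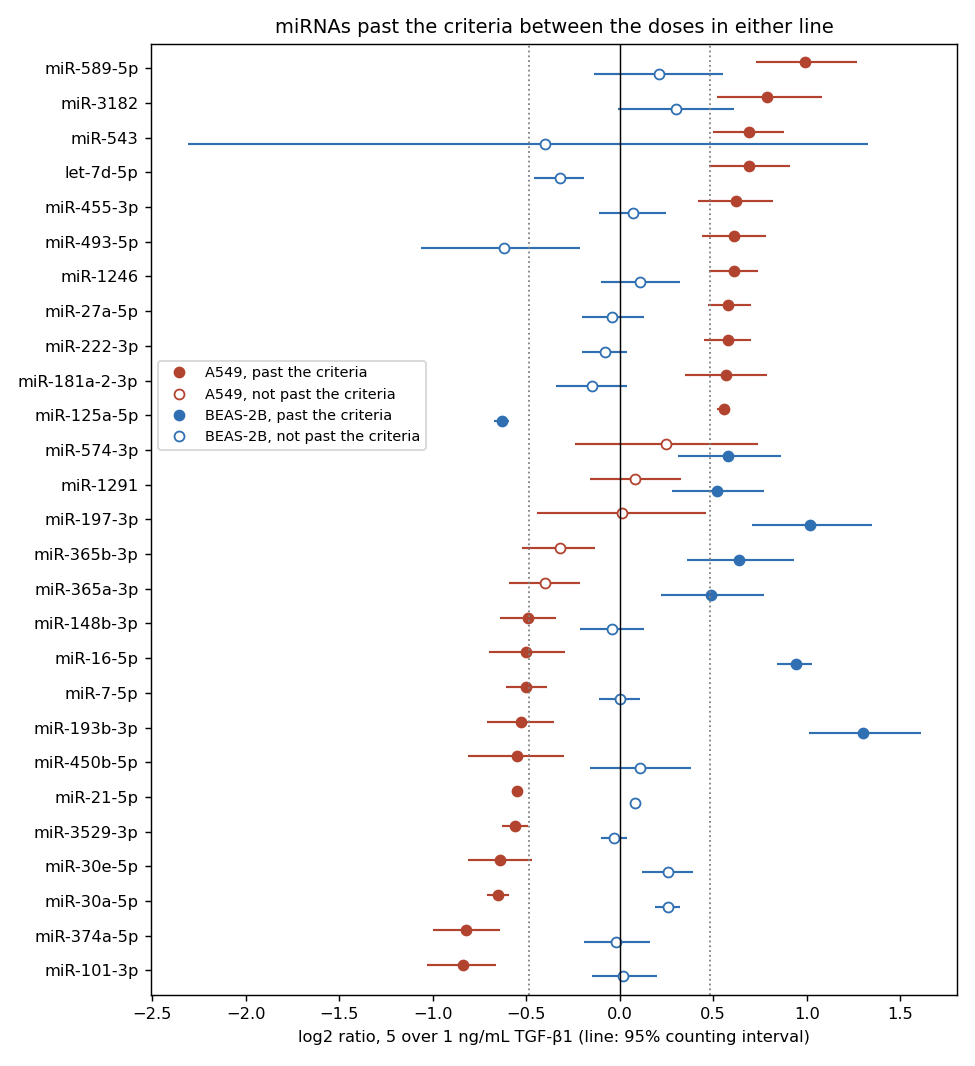
Log2 ratio of normalised counts, 5 over 1 ng/mL TGF-β1, for the 27 miRNAs past the criteria in either line, with 1 library per dose. Horizontal lines are 95% counting intervals and dotted lines mark 1.4-fold. Filled points are past the criteria in that line. miR-193b-3p, miR-16-5p and miR-125a-5p are filled in both lines, on opposite sides of 0.

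There were 3 miRNAs past the criteria in both lines, and in each the dose difference ran in opposite directions. These were 13.6% of the A549 list and 37.5% of the BEAS-2B list. miR-193b-3p, which is known to repress cyclin D1, went from 677 to 405 counts between the lower and the higher dose in A549, and from 127 to 370 in BEAS-2B. Its log2 ratio was -0.53 [-0.71, -0.35] in A549 and 1.30 [1.01, 1.61] in BEAS-2B. In normalised counts the A549 libraries stood at 375, 680 and 471 without TGF-β1, at 1 and at 5 ng/mL, and the BEAS-2B libraries at 106, 147 and 363. The 1 ng/mL library was thus the highest of the 3 in A549, whereas the 5 ng/mL library was the highest in BEAS-2B. The A549 call was lost with total counts and after quantile normalisation, and the ratio ranged there from -0.74 to -0.23 over the 6 scalings.

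miR-16-5p, a repressor of BCL2 and of cell cycle genes, went from 533 to 326 counts in A549 and from 1306 to 2956 in BEAS-2B. The ratio was -0.50 [-0.70, -0.29] in A549 and 0.94 [0.84, 1.03] in BEAS-2B. Normalised counts in BEAS-2B were 2395 in the control, then 1512 and 2898 at the lower and the higher dose. The lower dose was the one that stood apart there, 0.66 below control on the log2 scale, while the higher dose was 0.27 above control. In A549 the control (513) and the 1 ng/mL library (535) were alike and the 5 ng/mL library (379) was the lowest. The A549 call of miR-16-5p was lost under 3 of 6 scalings, where the ratio ranged from -0.71 to -0.20, and when a linear trend with the share of G and C in the mature sequence was removed (-0.47).

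miR-125a-5p, a homologue of the worm lin-4 miRNA, went from 11901 to 15118 counts in A549 and from 12109 to 9222 in BEAS-2B. The log2 ratios were 0.56 [0.52, 0.59] and -0.63 [-0.67, -0.59]. Both untreated libraries stood close together, at 7809 normalised counts in A549 and 7822 in BEAS-2B. A549 then stood at 11949 and 17594 with rising dose, and BEAS-2B at 14020 and 9041. Its calls were lost in both lines without scaling and after quantile normalisation, with the sign kept. The A549 ratio then ranged from 0.16 to 0.85 over the 6 scalings, and the BEAS-2B ratio from -0.68 to -0.32.

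**Figure D2:**
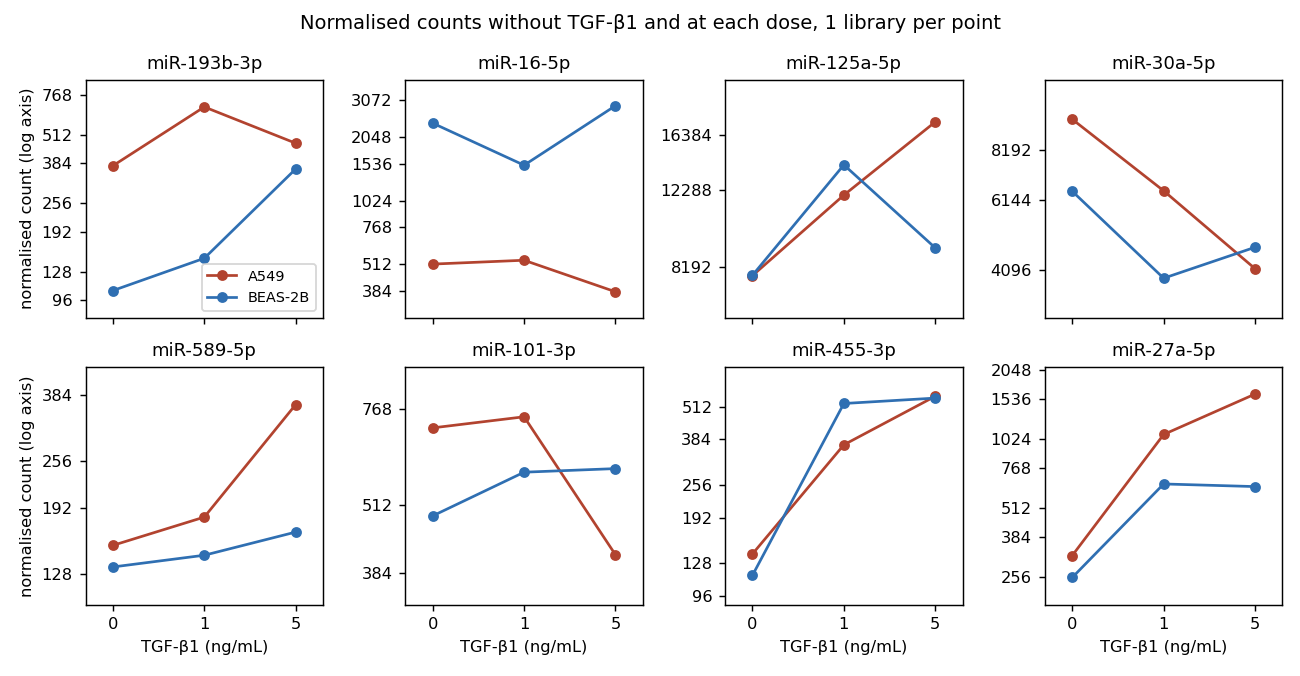
Normalised counts (log axis) of 8 miRNAs at 0, 1 and 5 ng/mL TGF-β1 in A549 and BEAS-2B, 1 library per point and so without error bars. miR-125a-5p continues upward at 5 ng/mL in A549 (17594) and returns toward its control level in BEAS-2B (9041), and miR-16-5p of BEAS-2B is lowest at 1 ng/mL (1512).

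Among the 11 miRNAs higher at 5 ng/mL in A549, miR-589-5p had the greatest ratio. It had 147 counts in the control, then 181 and 312 with rising dose, with a log2 ratio between the doses of 0.99 [0.73, 1.27]. Its hairpin lies at chr7:5495819-5495917 in an intron of FBXL18. In BEAS-2B it had 124 and 169 counts at the 2 doses and a ratio of 0.21 [-0.14, 0.55]. miR-3182, a short miRNA from an intron of CDH13, followed at 0.79 [0.52, 1.08], from 180 to 270 counts. Both were within 1.4-fold of control at 1 ng/mL, with log2 ratios of 0.25 and 0.03, and above it at 5 ng/mL, with 1.24 and 0.83.

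A second set was already above control at 1 ng/mL in A549 and stood higher still at 5 ng/mL. miR-543 and miR-493-5p, both of the imprinted DLK1-DIO3 region on chromosome 14, went from 394 to 550 counts and from 505 to 773 normalised counts. Their ratios were 0.69 [0.50, 0.88] and 0.61 [0.44, 0.78], beyond differences from control of 1.99 and 1.36 at 1 ng/mL. In BEAS-2B, miR-543 had 7 and 6 counts, and miR-493-5p had 110 and 84, below the level criterion. miR-455-3p, which lies in an intron of the collagen gene COL27A1 and is known from cartilage, went from 365 to 484 counts, a ratio of 0.62 [0.42, 0.82]. In BEAS-2B it had 456 and 565 counts and a ratio of 0.07 [-0.11, 0.25], although it was 2.18 above control at 1 ng/mL. In BEAS-2B the levels of miR-455-3p at the 2 doses thus differed by less than the counting error.

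miR-27a-5p, the less abundant arm of the miR-27a hairpin, showed the same arrangement. Its counts in A549 were 306 without TGF-β1, then 1070 and 1385, and the ratio between the doses was 0.58 [0.47, 0.70]. In BEAS-2B they were 331, 564 and 649, with a ratio of -0.04 [-0.20, 0.13]. miR-181a-2-3p, the minor arm of a miR-181a hairpin, had 87, 303 and 388 counts in A549 and a ratio of 0.57 [0.35, 0.79]. Its BEAS-2B ratio was -0.15 [-0.34, 0.04] after a difference from control of 1.96 at 1 ng/mL. miR-1246, whose sequence matches part of a spliceosomal small nuclear RNA, went from 844 to 1111 counts in A549 (0.61 [0.48, 0.74]).

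The remaining miRNAs higher in A549 were let-7d-5p and miR-222-3p. let-7d-5p, of the family that represses RAS and HMGA2, had 318 counts in the control, then 319 and 445, and its ratio was 0.69 [0.48, 0.91]. In BEAS-2B it was lower at the higher dose, with 935 and 882 counts and a ratio of -0.32 [-0.46, -0.19]. miR-222-3p, a repressor of the cell cycle inhibitor CDKN1B, went from 931 to 1200 counts in A549 (0.58 [0.45, 0.70]) and from 1093 to 1221 in BEAS-2B (-0.08 [-0.20, 0.04]). For both, the control and 1 ng/mL libraries of A549 lay within 1.4-fold of each other.

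Of the 11 miRNAs lower at 5 ng/mL in A549, miR-101-3p, a repressor of the histone methyltransferase EZH2, had the greatest ratio. Its counts were 680 in the control, then 739 and 356, with a ratio of -0.84 [-1.03, -0.66]. Only the 5 ng/mL library was low. In BEAS-2B it had 507 and 608 counts and a ratio of 0.02 [-0.15, 0.20]. miR-374a-5p went from 791 to 387 counts in A549 (ratio of -0.82, upper limit -0.64) and from 500 to 584 in BEAS-2B (-0.02 [-0.19, 0.16]). Its level in A549 was lower at each step, with 1104, 794 and 450 normalised counts from control to 5 ng/mL.

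miR-30a-5p and miR-30e-5p, of a family described to hold back SNAI1 and the mesenchymal programme, were lower together in A549. miR-30a-5p had 9385, 6439 and 3545 counts across the control, 1 and 5 ng/mL libraries, and miR-30e-5p had 1084, 822 and 456. The ratios between the doses were -0.65 [-0.71, -0.59] and -0.64 [-0.81, -0.47]. In BEAS-2B both were higher at 5 ng/mL than at 1 ng/mL, with ratios of 0.26 [0.19, 0.32] and 0.26 [0.12, 0.39], which did not reach 1.4-fold. The 2 sequences differ by 1 edit, and the assignment of reads between them was not tested.

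miR-21-5p, which is processed under TGF-β signalling and represses SMAD7, was the most abundant miRNA of every treated library. It took 56.8% and 47.6% of counts in A549 (511881 and 301167 counts at 1 and 5 ng/mL), and 53.3% and 57.2% in BEAS-2B. The log2 ratio was -0.55 [-0.56, -0.55] in A549 and 0.08 [0.08, 0.09] in BEAS-2B. In A549 the ratio ranged from -0.77 to 0.00 over the other scalings, and quantile normalisation, which gives the top rank the same value in each library, gave the 0.00. With the trend on base composition removed it was -0.42, under 1.4-fold. Against control, the log2 ratios of miR-21-5p at the lower and the higher dose were 1.02 and 1.10 in BEAS-2B and 0.23 and -0.32 in A549.

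The other miRNAs lower in A549, miR-3529-3p, miR-7-5p, miR-148b-3p and miR-450b-5p, had ratios between -0.56 and -0.49. All 4 lost the call with total counts, and miR-148b-3p also with total counts without miR-21-5p and after quantile normalisation. With the trend on base composition removed, their ratios were -0.40, -0.34, -0.41 and -0.32, under 1.4-fold. miR-3529-3p went from 5027 to 2944 counts and its reverse complement miR-7-5p, a repressor of EGFR, from 1858 to 1133. When these names were summed, the pair counted as 1 miRNA and remained past the criteria. miR-148b-3p, which represses DNMT1, went from 952 to 584 counts, and miR-450b-5p, of a cluster on chromosome X with miR-424 and miR-503, went from 337 to 198. Both had been lower than control at 1 ng/mL already, by log2 ratios of -0.71 and -0.98. The ratio in BEAS-2B was -0.03 [-0.10, 0.04] for miR-3529-3p, 0.00 [-0.11, 0.11] for miR-7-5p, -0.04 [-0.21, 0.13] for miR-148b-3p and 0.11 [-0.16, 0.38] for miR-450b-5p.

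There were 7 miRNAs higher at 5 ng/mL in BEAS-2B, and the pair at or beyond 2-fold were miR-193b-3p and miR-197-3p. miR-197-3p had 297 counts in the control, then 117 and 281, a ratio of 1.02 [0.71, 1.35]. The 1 ng/mL library was the low one and the other libraries were alike, with 228 and 275 normalised counts against 135. In A549 it had 92 and 80 counts and a ratio of 0.01 [-0.44, 0.46]. miR-574-3p in BEAS-2B was also lowest at 1 ng/mL, with 347, 178 and 315 counts and a ratio of 0.58 [0.31, 0.86]. Its normalised counts were 267, 206 and 309. The 1 ng/mL library was within 1.4-fold of control, at a log2 ratio of -0.37, against -0.75 for miR-197-3p.

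miR-365a-3p and miR-365b-3p went from 180 to 299 and from 159 to 294 counts in BEAS-2B, ratios of 0.49 [0.22, 0.77] and 0.64 [0.36, 0.93]. In A549 the same names went from 576 to 377 and from 540 to 372 counts, ratios of -0.40 [-0.59, -0.21] and -0.32 [-0.52, -0.13]. The names share 1 sequence, and summed they stayed past the criteria in BEAS-2B. The hairpin of miR-365a (chr16:14309285-14309371) lies downstream of that of miR-193b (chr16:14303967-14304049), both on the plus strand within introns of MIR193BHG. The shared 3p sequence of miR-365a and miR-365b was thus higher at 5 ng/mL in BEAS-2B and lower in A549, as miR-193b-3p was, but its reads do not tell the hairpin beside miR-193b from that of miR-365b. miR-1291, which overlaps a small nucleolar RNA, had 257 and 369 normalised counts in BEAS-2B (0.52 [0.28, 0.77]) and 294 and 312 in A549 (0.08 [-0.16, 0.33]).

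The 22 miRNAs of A549 and the 8 of BEAS-2B were also set in order against the untreated library of the same line. In A549, 14 of 22 were ordered by dose from control through 1 to 5 ng/mL, and 8 turned at 1 ng/mL, among them miR-16-5p, miR-21-5p, miR-101-3p and miR-193b-3p. In BEAS-2B, 3 of 8 were ordered by dose (miR-193b-3p, miR-365a-3p and miR-1291) and 5 turned at 1 ng/mL. miR-365b-3p, the same sequence as miR-365a-3p, was among the 5. At 1 ng/mL its log2 ratio to control was -0.15, against 0.24 for miR-365a-3p. The order was set by the sign of that ratio alone. At 1 ng/mL, 11 of the 22 and 5 of the 8 were within 1.4-fold of control, such as miR-16-5p and miR-101-3p in A549 at 0.06 and 0.07. For 3 of the 22 and 4 of the 8, the 5 ng/mL library was closer to the control than the 1 ng/mL library was. The orders share the 1 ng/mL library with the criteria that chose these miRNAs, so they are a description of 3 libraries in each line. They are given without the share over all miRNAs, so no difference between the lines is read from them.

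The dose ratios of A549 and BEAS-2B share no library and could be set against each other. Over the 102 miRNAs meeting the level criterion in both lines, Pearson's r was -0.42 and Spearman's rho -0.40, and r was -0.35 over the other 99 when the miRNAs past the criteria in both lines were left out. All points share the depth and scaling of the same 4 libraries, and related miRNAs share sequence, so this is given without a p-value. Without the level criterion, over 327 miRNAs with a mean normalised count of at least 10, r was -0.13. Among these 102, the counting interval excluded no change in both lines for 39, and the signs were opposite for 32 of them. Of the 32, 20 were higher at 5 ng/mL in A549 but lower in BEAS-2B and 12 were the reverse. This split followed the scaling, with 27 and 5 for total counts, 13 and 20 for total counts without miR-21-5p, and 3 and 43 without scaling. The remaining 7 were lower in both lines, led by miR-27a-3p, the abundant arm of its hairpin, with -0.33 [-0.36, -0.31] in A549 and -0.34 [-0.36, -0.31] in BEAS-2B. The other 6 were miR-22-3p, miR-24-3p, miR-26b-5p, miR-27b-3p, miR-100-5p and let-7i-5p. Opposite signs also made up 32 to 46 of the 40 to 58 such miRNAs under the 5 other scalings that keep counting intervals, while the number higher in both lines ranged from 0 to 9 and the number lower in both from 1 to 9. The 46 of 58 came without scaling, where the total count was lower at 5 ng/mL in A549 and higher in BEAS-2B. Depth alone favours opposite signs in that setting. With total counts 9 were higher and 1 lower in both lines, and with total counts without miR-21-5p 8 were higher and 1 lower, so the set lower in both lines rests on the scaling.

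**Figure D3:**
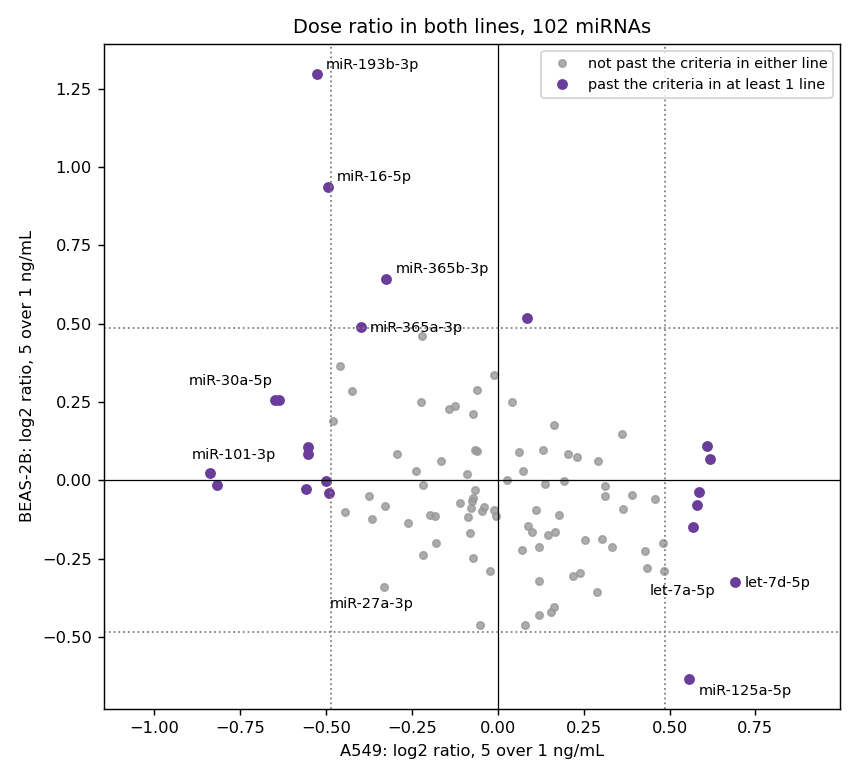
Log2 ratio of 5 over 1 ng/mL in A549 (horizontal) against BEAS-2B (vertical) for the 102 miRNAs meeting the level criterion in both lines, 1 point per miRNA. Dotted lines mark 1.4-fold. The points run from upper left (miR-193b-3p, miR-16-5p) to lower right (miR-125a-5p), with Pearson's r of -0.42, and no point lies beyond 1.4-fold in the same direction in both lines.

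A dose difference common to both lines was tested across miRNAs with edgeR's quasi-likelihood test, using the cell line as a block, so that the spread is that of the dose difference between the lines. With 4 libraries this left 1 residual degree of freedom, so an absence of calls does not show that the doses were alike. Of 402 miRNAs kept, 0 (0.0%) had an adjusted p below 0.05, the smallest adjusted p (edgeR, Benjamini-Hochberg) was 0.994, and 6 had an unadjusted p below 0.05. DESeq2 with the same design gave 0 of 1401 at either level. The smallest unadjusted p-values in the edgeR fit belonged to miR-485-3p (0.00689), miR-93-3p (0.0125) and miR-4634 (0.0157). Their counts were low. With rising dose miR-485-3p had 25 and 69 in A549 but 0 and 1 in BEAS-2B, miR-93-3p had 8 and 14 and then 4 and 24, and miR-4634 had 8 and 21 and then 10 and 23.

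Families were described over lists of members, by counts and medians beside those of all miRNAs meeting the level criterion, for which the median was 0.02 in A549 and -0.03 in BEAS-2B. Of all these miRNAs, 51.5% had a ratio above 0 in A549 and 43.0% in BEAS-2B, and the shares past the criteria were 16.9% and 6.61%. The let-7 list had 8 of 9 members at that level in each line. In A549, 7 of the 8 had a ratio above 0 and the median was 0.27, while 1 was past the criteria (let-7d-5p), beside 8.46% higher over all miRNAs. In BEAS-2B, 7 of the 8 were below 0, 0 were past the criteria and the median was -0.25. let-7a-5p went from 8011 to 9667 counts in A549 (0.48 [0.44, 0.53]) and from 13537 to 13067 in BEAS-2B (-0.29 [-0.33, -0.26]). let-7i-5p, the most abundant of them in A549, differed little there at -0.02 [-0.04, 0.00]. Both medians kept their sign under all 6 other scalings, from 0.05 to 0.56 in A549 and from -0.30 to -0.01 in BEAS-2B.

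The miR-30 family had all 5 members at the level criterion in both lines. In A549 all 5 ratios were below 0, against 48.5% of all miRNAs, and the median was -0.22. Of the 5, 2 were past the criteria (miR-30a-5p and miR-30e-5p), beside 8.46% lower over all. In BEAS-2B, 3 were above 0 and 2 below, 0 were past the criteria, and the median was 0.26. miR-30c-5p and miR-30d-5p were near no change in both lines, with ratios of -0.07 and -0.05 in A549, and of -0.06 and -0.10 in BEAS-2B. The A549 median turned to 0.07 with total counts, where the median of all tested miRNAs was 0.33. The BEAS-2B median stayed between 0.21 and 0.50.

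The list of miR-15/16 relatives had 4 of 7 members at the level criterion in BEAS-2B, of which miR-16-5p was past both criteria and the median was 0.37. miR-15b-5p went from 429 to 641 counts (0.34 [0.16, 0.52]), and miR-15a-5p, below the level criterion, from 39 to 95 (1.03 [0.49, 1.62]). These have the seed AGCAGCA, and all 5 measured miRNAs with it in BEAS-2B had a ratio above 0, with a median of 0.89. That median is the value of miR-195-5p, which had 6 and 14 counts and an interval of [-0.49, 2.65] that includes no change. At the level criterion, miR-424-5p with this seed was at 0.41 [0.20, 0.62]. The listed miR-503-5p was the 1 of the 4 below 0, at -0.12 [-0.27, 0.03]. In A549, 2 of 7 met the level criterion, miR-16-5p and miR-503-5p, both with ratios below 0 and a median of -0.29. Below that level, miR-424-5p with the same seed went with miR-16-5p, from 188 to 100 counts (-0.69 [-1.06, -0.34]), while miR-15b-5p was at 0.08 [-0.23, 0.38]. miR-16-5p is made from hairpins at chr13:50048973-50049061, beside miR-15a in an intron of DLEU2, and at chr3:160404745-160404825, beside miR-15b in an intron of SMC4.

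The group of miR-99, miR-100 and miR-125 had 5 of 5 members at the level criterion in both lines. In BEAS-2B all 5 were below 0, with miR-125a-5p past the criteria and a median of -0.22. In A549, 4 were above 0 and the median was 0.10. miR-125b-5p, with the seed of miR-125a-5p, was at 0.12 [0.04, 0.20] in A549 and -0.32 [-0.38, -0.27] in BEAS-2B. Without scaling the medians turned to -0.11 in A549 and 0.02 in BEAS-2B.

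DLK1-DIO3 miRNAs were measured mainly in A549, where 11 of 33 listed members met the level criterion against 1 of 33 in BEAS-2B. In A549, 10 of the 11 were above 0, against 51.5% of all miRNAs. Past the criteria were 2 of the 11, both higher, beside 8.46% higher and 16.9% in either direction over all miRNAs. The median was 0.31, which ranged from 0.10 to 0.60 over the other scalings. miR-409-3p went from 491 to 532 counts (0.33 [0.15, 0.51]) and miR-381-3p from 5016 to 4942 (0.19 [0.13, 0.25]). Members below the level criterion did not all go that way: miR-485-3p was at 1.64 [1.00, 2.40] and miR-656-3p at -1.22 [-2.68, -0.10].

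A list of miRNAs described in earlier work as raised by TGF-β1 had 5 of 10 members at the level criterion in A549, with 0 higher, 1 lower (miR-21-5p) and a median of -0.22. In BEAS-2B 6 of 10 met it, with 0 past the criteria and a median of 0.09. miR-143-3p, a smooth muscle miRNA, had log2 ratios of 3.43 and 3.05 over control in A549 at the lower and the higher dose, and the ratio between the doses was -0.37 [-0.48, -0.26]. miR-181a-5p and miR-181b-5p were at -0.06 [-0.16, 0.04] and 0.14 [0.03, 0.25] in A549 and at 0.10 [0.00, 0.19] and -0.01 [-0.11, 0.09] in BEAS-2B. The A549 median of this list turned to 0.07 with total counts.

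The miR-17-92 cluster, which promotes proliferation, had 3 of 6 members at the level criterion in each line, 0 of them past the criteria, with medians of -0.22 in A549 and 0.25 in BEAS-2B. miR-17-5p went from 550 to 345 counts in A549 (-0.46 [-0.66, -0.26]) and from 580 to 883 in BEAS-2B (0.37 [0.21, 0.52]). The miR-23/27/24 clusters had 6 of 6 members at the level criterion, with medians of -0.10 and -0.04, and only miR-27a-5p of A549 was past the criteria. The miR-200 list, which includes miR-205, had 1 member at the level criterion in each line, miR-200b-3p, at -0.20 in A549 and -0.11 in BEAS-2B.

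The study selected 7 miRNAs on these same libraries, from those changed in both lines and by predicted targeting of its core genes. Of these, 7 met the level criterion in A549 and 6 in BEAS-2B. Since the same libraries chose them, they are no independent evidence of a direction. Between the doses, 1 was past the criteria, miR-27a-5p in A549. miR-335-3p, made from a hairpin in the imprinted gene MEST, had 358, 300 and 206 counts in A549 and a ratio of -0.33 [-0.59, -0.07] between the doses. In BEAS-2B it had 1174, 117 and 135 counts. Its level there had dropped by 2.73 on the log2 scale at 1 ng/mL and the ratio between the doses was -0.03 [-0.40, 0.34]. The other arm, miR-335-5p, was at -0.59 [-1.44, 0.18] in A549 and 0.23 [-0.22, 0.68] in BEAS-2B.

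Both arms of 1 hairpin come from the same precursor, and they could be compared where each had a mean normalised count of at least 10. There were 86 such pairs in A549 and 75 in BEAS-2B. The arms had the same sign in 50 and 36 pairs, and Pearson's r between them was 0.24 and 0.11, as a description over pairs measured in the same 2 libraries. The counting intervals of the arms did not overlap in 18 and 15 pairs. The arms of miR-125a went together in both lines, with miR-125a-3p at 0.53 [0.15, 0.91] in A549 and -0.49 [-0.85, -0.14] in BEAS-2B beside 0.56 and -0.63 for miR-125a-5p.

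Other pairs of arm names stood apart. In A549 the 5p and 3p arms of miR-27a stood at 0.58 and -0.33, and those of miR-193b at 0.39 [0.03, 0.76] and -0.53. In BEAS-2B, miR-193b-5p was at -0.14 [-0.79, 0.51] beside 1.30 for miR-193b-3p. miR-16-2-3p, from 1 of the 2 miR-16 hairpins, was at -0.46 [-0.60, -0.32] in BEAS-2B beside 0.94 for miR-16-5p, which both hairpins supply. For miR-27a in A549 and miR-193b in both lines, the arms differed in dose ratio beyond counting error. For miR-16 the 5p reads come from 2 hairpins, so its gap does not show that the arms of 1 hairpin parted. These hairpins were named because 1 arm was past the criteria, which itself favours a gap.

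**Figure D4:**
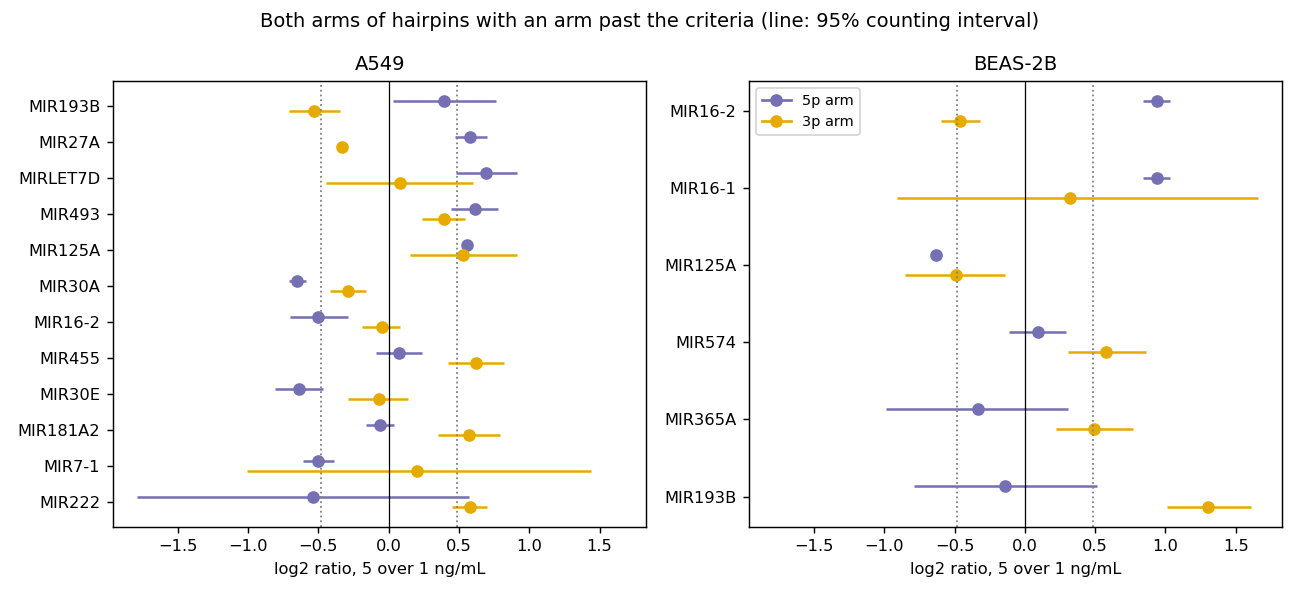
Log2 ratio of 5 over 1 ng/mL for the 5p and 3p arms of hairpins with an arm past the criteria, in A549 (12 pairs) and BEAS-2B (6 pairs), with 95% counting intervals and dotted lines at 1.4-fold. The arms of miR-125a overlap in both lines, and those of miR-193b are apart in both. miR-16-5p is drawn for each of its hairpins.

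Base composition moved with the dose ratio in A549. Over 121 miRNAs with a sequence, Pearson's r between the log2 ratio and the share of G and C in the mature sequence was 0.32 (Spearman's rho 0.33), a slope of 0.11 for each 10 percentage points. The miRNAs past the criteria had a median of 50.0% when higher and 38.6% when lower, against 47.6% over all. In BEAS-2B r was -0.02 over 113 miRNAs and rho -0.09. With the linear trend removed, an alternative added after the data were seen, 18 miRNAs were past the criteria in A549 (12 higher, 6 lower) and 7 in BEAS-2B, and r between the lines was -0.43. The A549 calls of miR-16-5p, miR-21-5p, miR-3529-3p, miR-7-5p, miR-148b-3p and miR-450b-5p, all lower, were lost. In BEAS-2B the call of miR-365a-3p was lost (0.48). The 18 of A549 also include miRNAs that were not past the criteria before. No value with the trend removed is given for miR-374a-5p, which had no sequence. The part of base composition in the A549 ratios was not tested further.

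**Figure D5:**
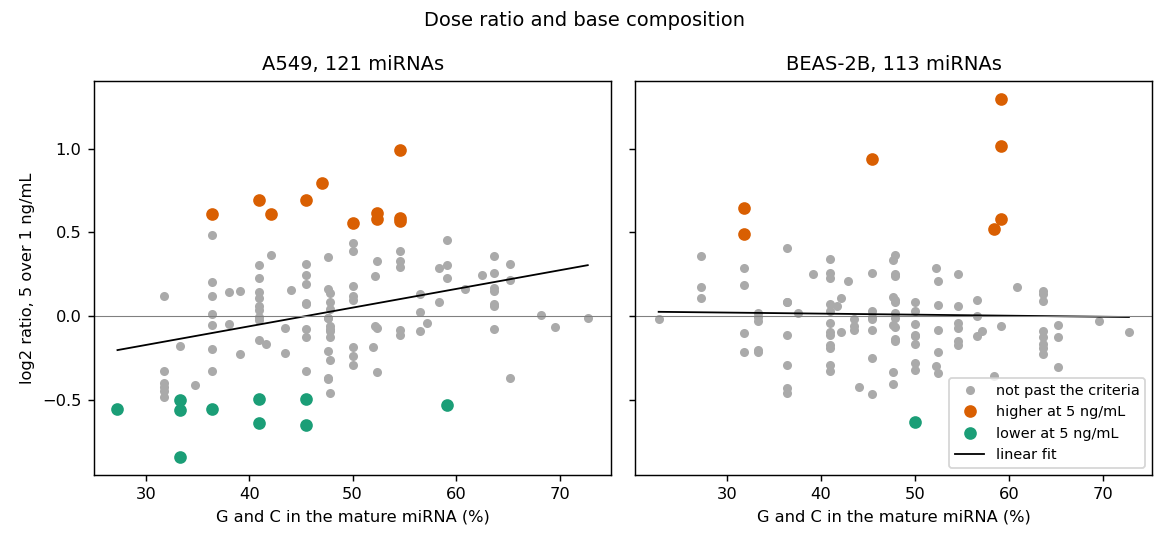
Log2 ratio of 5 over 1 ng/mL against the percentage of G and C in the mature miRNA, for 121 miRNAs in A549 and 113 in BEAS-2B that met the level criterion, with a linear fit. The fit rises in A549 (r of 0.32) and is flat in BEAS-2B (r of -0.02).

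Below the level criterion, 8 miRNAs in each line had a counting interval wholly beyond 1.4-fold. In A549, 4 were higher and 4 lower. miR-374a-3p, the partner arm of miR-374a-5p, went from 209 to 86 counts (-1.06 [-1.45, -0.70]), miR-4791 from 155 to 61 (-1.12 [-1.58, -0.70]) and miR-3613-5p from 56 to 16 (-1.54 [-2.50, -0.77]). Both arms of miR-374a were thus lower at 5 ng/mL. miR-3605-3p had 8 counts and then 0, and the counting interval of its log2 ratio had an upper limit of -0.56. The higher ones were miR-485-3p, miR-6087 (25 to 52 counts), miR-4448 (7 to 24) and miR-191-3p (6 to 20).

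In BEAS-2B, 7 were higher and 1 lower. miR-31-3p, the minor arm of a miRNA known from invasive tumours, went from 68 to 235 counts (1.54 [1.15, 1.96]), and in A549 from 164 to 98 (-0.53 [-0.91, -0.16]). It joined miR-193b-3p and miR-16-5p as a miRNA higher at 5 ng/mL in BEAS-2B but lower in A549. miR-15a-5p, miR-93-3p (4 to 24 counts), miR-29c-3p (2 to 15) and miR-6510-5p (2 to 16) were also higher. With 2 counts at 1 ng/mL, the log2 ratio was 2.24 [0.56, 5.84] for miR-29c-3p and 2.33 [0.67, 5.92] for miR-6510-5p. miR-29a-3p, which differs from miR-29c-3p by 1 edit and had 2572 and 3556 counts, was at 0.23 [0.15, 0.30]. miR-7706 was the lower one, from 84 to 47 counts (-1.06 [-1.62, -0.55]).

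Most listed miRNAs gave no dose comparison. Counts of 0 in both treated libraries were found for 1440 miRNAs in A549 and 1444 in BEAS-2B. Another 417 and 415 had counts in 1 library only, of at most 8 and 6. Among those 417, the counting interval excluded no change for 5 in A549, and for 1 of these, miR-3605-3p, it lay wholly beyond 1.4-fold. In BEAS-2B it excluded no change for 0 of the 415. For the others a dose difference was not detectable at this depth.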

How the data were processed

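The series holds 6 small RNA libraries, 1 for each line and dose, and whether each came from a single culture is not stated. The authors deposited whole-number counts for each mature miRNA name, without normalisation. Per the labels, total RNA was made into small RNA libraries. The submitters' processing notes name Bowtie2 and bedtools, and neither build nor strand handling is given in the sources used here. Total counts ranged from 633318 to 900424.

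Counts were scaled with TMM over all 6 libraries (edgeR 4.0.16, R 4.3.3) and a pseudocount of 1 was added before log2. The criteria, a fold of 1.4 and an ND of 8, follow the study. Ratio intervals are exact Clopper-Pearson 95% intervals of the share of counts (scipy 1.17.1). The dose difference common to both lines was tested with edgeR's quasi-likelihood test and, as an alternative, DESeq2 1.42.0. Scripts were tested on simulated counts. Other scalings (limma 3.58.1 for quantiles), thresholds and pseudocounts were tried.

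The miRNAs named were those past the criteria in either line, their partner arms, up to 5 each way below the level criterion with intervals beyond 1.4-fold, the most abundant ones and list members. The comparison, lists and tests were chosen with earlier results of these data known. Sequences and positions are from RefSeq GRCh38.p14, which matched 2281 of 2588 names, with host genes from GENCODE 29 and clusters within 10 kb.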

Additional observations from a re-analysis of the deposited data

Results flagged for a closer look

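Of the 27 miRNAs past the criteria in either line, 16 had dose ratios of opposite sign in the 2 lines, and for 10 of them the counting intervals of both lines excluded no change. Opposite signs were common over all miRNAs as well. Of the 102 meeting the level criterion in both lines, 39 had intervals that excluded no change in both, and 32 of these were opposite. Opposite direction was thus not particular to the miRNAs past the criteria. The 32 of 39 covers only miRNAs with such intervals, whereas 16 of 27 counts signs alone, so these shares are not alike. The share of opposite signs alone over the 102 is not given. The 16 of 27 is therefore not read as a result about these miRNAs. The difference between the lines was not tested, since each line and dose was 1 library. Opposite signs held for 10 of the 16 under all 6 other scalings. The 6 include no scaling, where total counts fell from 900424 to 633318 in A549 and rose from 657105 to 767287 in BEAS-2B. That setting favours a lower ratio in A549 with a higher one in BEAS-2B, so it is no check on that direction. Values below are the log2 ratio in A549 minus that in BEAS-2B.

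At 5 ng/mL, 9 were lower in A549 but higher in BEAS-2B. The difference was -1.82 for miR-193b-3p and -1.43 for miR-16-5p. It was -0.97 for miR-365b-3p and -0.89 for miR-365a-3p, which share 1 sequence. miR-30a-5p stood at -0.91 and its close relative miR-30e-5p at -0.89. For miR-101-3p (-0.86), miR-450b-5p (-0.66) and miR-21-5p (-0.64), the BEAS-2B ratio was 0.02, 0.11 and 0.08, so most of the difference lay in A549.

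The reverse held for 7, higher in A549 but lower in BEAS-2B. The difference was 1.24 for miR-493-5p, 1.19 for miR-125a-5p, 1.10 for miR-543 and 1.02 for let-7d-5p. It was 0.72 for miR-181a-2-3p, 0.66 for miR-222-3p and 0.62 for miR-27a-5p. miR-543 had 7 and 6 counts in BEAS-2B, and its interval there, from -2.31 to 1.33, covers either direction. miR-493-5p was also below the level criterion in BEAS-2B, with 110 and 84 counts.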

How the results depend on the processing

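Main counts past the criteria were 22 in A549, 8 in BEAS-2B and 3 in both lines. With counts scaled by their total, A549 had 40 and both lines shared 1. Scaling by the total without miR-21-5p gave 13 in BEAS-2B, and no scaling gave 20 there and 8 in both lines. Quantile normalisation left 0 in both lines. An ND threshold of 7 gave 40, 16 and 7. An ND threshold of 9 gave 2 in BEAS-2B, and an ND of 8 in both libraries gave 3. Without the level criterion, beyond a mean normalised count of 10, there were 135, 74 and 28. A fold of at least 2 left 0, 2 and 0, and a counting interval wholly beyond 1.4-fold left 9, 4 and 1. Pearson's r between the lines was -0.13 without the level criterion and from -0.47 to -0.34 otherwise. The median absolute log2 ratio was 0.35 in A549 with total counts, against 0.22, and 0.22 in BEAS-2B without scaling, against 0.14. The fit common to both lines called 0 under each of its 5 alternatives, including the fit with no replicate block, in which the cell line was left out, with 0 to 15 at an unadjusted p below 0.05. Of the medians of lists, 155 stayed within their counting error and 73 moved, and of the ratios of single miRNAs 350 stayed and 82 moved. The cause of these moves was not tested. Leaving out a library was not possible, because each line and dose had 1 library and the common fit would keep no residual degree of freedom. Without replicates, differences between libraries and differences between doses cannot be told apart.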
